A study of Mus musculus with 9 samples.

Results

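The enzymes that assemble triglyceride in the liver were followed through 9 genes, namely Gpam, Agpat2, Agpat3, Lpin1, Lpin2, Lpin3, Dgat1, Dgat2 and Mogat1, out of 17514 genes that the array measures with at least 1 probe set paired with a single gene symbol. All 19 probe sets paired with 1 of these 9 symbols were taken, and none was dropped for low signal. A probe set is a group of short oligonucleotides that reads 1 transcript or a part of it, and Agpat2, Lpin3 and Mogat1 each had a single one. Livers came from c57Bl/6 mice. The HFD group (5 arrays) received a Harlan-Teklad diet with 21% fat, which supplied 42% of the calories, and the control group (4 arrays) carries only the label control diet. All animals had chow before the study, and sex, age, time on the diet, time of day and feeding state at collection are not given in the sources used here. Nor do the labels tie each array to an animal of its own, and the p-values therefore cover the spread between arrays alone, part of which may be technical.

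Triglyceride is made by a pair of routes that meet at diacylglycerol. In the glycerol phosphate route, a glycerol phosphate acyltransferase (Gpam encodes the mitochondrial one) adds the first fatty acid, an acylglycerol phosphate acyltransferase (AGPAT) adds the next to give phosphatidate, and a lipin removes the phosphate. In the monoacylglycerol route, known best from the intestine, a monoacylglycerol acyltransferase such as the product of Mogat1 forms diacylglycerol directly. Dgat1 and Dgat2 encode unrelated diacylglycerol acyltransferases that add the last fatty acid in both routes. Lipin 1 is also known as a nuclear coactivator in liver that works with the product of Ppargc1a.

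The deposited values were read as log2, since no source states their base, and are centred on each probe set, so that they give differences between arrays and not levels, and no member can be called more abundant than another. For the same reason the liver label could not be checked against the level of hepatocyte markers. None of the 8 hepatocyte markers examined passed the test between the diets, which does not show that they were equal. The mean of their list was -0.29 to 0.04 on HFD arrays and 0.02 to 0.23 on control arrays. HFD replicate 5 had the widest spread of values over all probe sets (SD 0.33, against 0.22 to 0.27 on the other arrays), and results that turn or lose a call without it are given beside the member. In whole liver, fewer cells of a type and less RNA per cell cannot be told apart.

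Of the 19 probe sets, 4 passed an adjusted p of 0.05 in limma, fitted and adjusted over all 41782 probe sets. Mogat1, Agpat2 and 1 of the 2 probe sets of Dgat2 rose in the HFD group and Lpin3 fell, while Gpam, Agpat3, Lpin1, Lpin2 and Dgat1 had no probe set past the threshold. Over all probe sets 3.26% passed, 2.04% higher and 1.23% lower, beside 21.1% of the member probe sets. The genes were chosen with earlier results of these data known, so that these shares describe the members and support nothing further. The groups did not overlap in 7 member probe sets, 6 higher and 1 lower, where 8.00% of all probe sets had no overlap. The median difference of the member probe sets was 0.29, and that of all probe sets was -0.01. The median size of the difference without regard to sign was 0.47 among the members and 0.10 among all probe sets. Before adjustment 12 of the 19 had a limma p under 0.05. The share over all probe sets was not counted here, so this describes the members alone. It cannot be said whether 12 of 19 is more than on the rest of the array. Without HFD replicate 5, 2 passed, Mogat1 and Agpat2. The number also fell to 2 without HFD replicate 3, control replicate 3 or control replicate 4, and to 1 without control replicate 2.

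**Figure D1:**
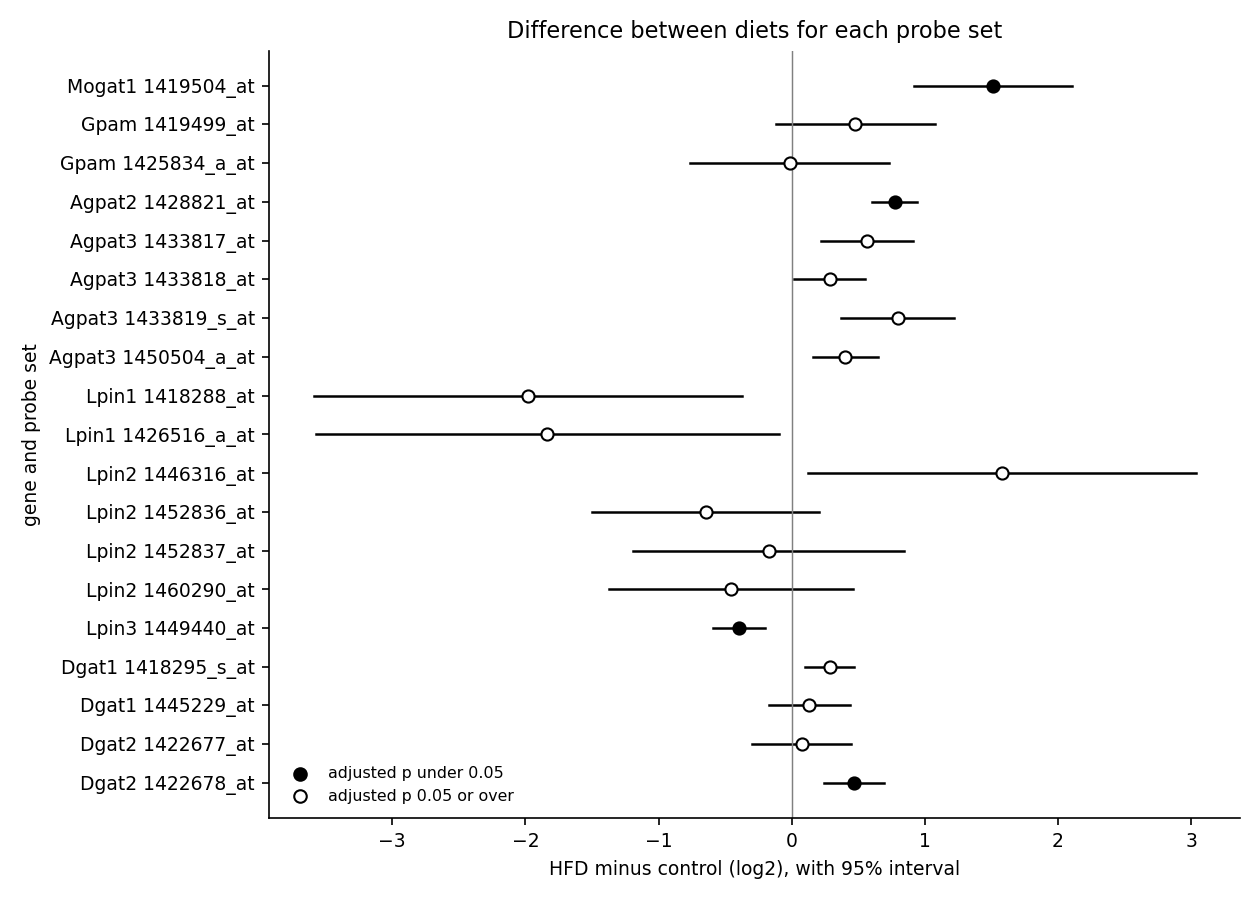
Difference between the diets (HFD minus control, log2, x axis) for each of the 19 probe sets (y axis), with the 95% interval of the limma fit as a line and filled points for an adjusted p under 0.05. Mogat1 has the largest filled point on the right at 1.51, Lpin3 is the only filled point on the left at -0.40, and the intervals of Lpin1 and Lpin2 are the widest.

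The sequences that lie before the start of Mogat1 and Agpat2, which had the smallest adjusted p of the members, and of Lpin1 and Lpin2, which varied most between arrays, are shown for orientation. RefSeq promoter windows on GRCm38.p6 were at hand for 7 of the 9 genes, 11 windows in all, and the 250 bases before each annotated start were searched. They run 5′ to 3′ on the strand of the gene, and capitals mark matches to CACGTG (the E-box), AGGTCA (the element read by nuclear receptors) or GGGCGG (the GC box), on either strand. The Mogat1 window is chr1:78510810-78511059 on the plus strand and the Agpat2 window chr2:26604418-26604667 on the minus strand. The Lpin1 window is chr12:16610967-16611216 on the minus strand, at a start inside the annotated gene. The Lpin2 window is chr17:71183282-71183531 on the plus strand, the first of several for this gene, and the others are not shown.
Mogat1: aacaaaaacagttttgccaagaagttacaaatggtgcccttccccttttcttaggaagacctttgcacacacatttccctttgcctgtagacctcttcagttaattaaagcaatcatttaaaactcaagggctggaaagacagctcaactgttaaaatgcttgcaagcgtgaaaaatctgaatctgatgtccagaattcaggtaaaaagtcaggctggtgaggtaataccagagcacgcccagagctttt
Agpat2: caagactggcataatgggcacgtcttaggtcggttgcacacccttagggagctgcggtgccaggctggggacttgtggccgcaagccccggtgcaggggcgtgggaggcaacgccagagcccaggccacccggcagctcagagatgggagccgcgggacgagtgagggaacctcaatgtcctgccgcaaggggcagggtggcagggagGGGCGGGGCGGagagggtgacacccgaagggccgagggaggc
Lpin1: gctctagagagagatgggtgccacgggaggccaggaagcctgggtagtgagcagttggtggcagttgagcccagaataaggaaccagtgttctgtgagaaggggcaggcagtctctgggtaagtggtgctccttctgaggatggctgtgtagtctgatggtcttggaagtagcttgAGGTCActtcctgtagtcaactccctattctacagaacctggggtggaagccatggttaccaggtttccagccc
Lpin2: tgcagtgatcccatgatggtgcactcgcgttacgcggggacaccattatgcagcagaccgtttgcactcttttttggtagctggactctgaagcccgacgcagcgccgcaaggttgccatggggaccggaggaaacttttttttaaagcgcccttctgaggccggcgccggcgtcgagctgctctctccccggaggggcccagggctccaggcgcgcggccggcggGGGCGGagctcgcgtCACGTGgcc

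The 4 windows differ in composition, with 41.2% G and C for Mogat1, 69.2% for Agpat2, 54.8% for Lpin1 and 65.2% for Lpin2. The Mogat1 window holds none of these motifs. Agpat2 has overlapping GC boxes that begin 42 and 37 bases before the start, and Lpin1 has AGGTCA 74 bases before it. The Lpin2 window shown has a GC box 24 bases and an E-box 9 bases before the start, and the other Lpin2 windows have no E-box. Of 32851 windows of the same length, 6.02% hold CACGTG, 14.0% hold AGGTCA and 32.7% hold GGGCGG. Of the 11 member windows, 1 holds the first, 2 the second and 5 the third. These are matches of letters and no measurement of binding.

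Mogat1 (chromosome 1, 78511060 to 78606964 on GRCm38.p6), the entry to the monoacylglycerol route, had the largest rise of the members that passed. Its values were 0.66, 0.25, 1.65, 1.63 and 0.94 on the HFD arrays, against -0.65, -0.69, -0.35 and -0.25 on the control arrays. Every HFD array lay above every control array, with HFD replicates 3 and 4 highest and HFD replicate 2 nearest to the controls. The group means were 1.03 ± 0.61 in HFD (SD, n = 5) and -0.48 ± 0.22 in control (SD, n = 4). The difference was 1.51 ± 0.27 on the log2 scale (SE, 2.85-fold, limma adjusted p = 0.0140), with a 95% interval of 0.92 to 2.10. The HFD arrays were spread 2.81 times as widely as the controls. Without control replicate 2 the difference was 1.44 and no longer passed (adjusted p = 0.0567), and it passed when any other array was left out.

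In the glycerol phosphate route, Agpat2 was the acyltransferase that passed, and no gene of this route was tested against another. Agpat2 (chromosome 2, 26593057 to 26604417), which encodes an enzyme that makes phosphatidate and whose human counterpart is mutated in a congenital lipodystrophy, had values of 0.28, 0.42, 0.42, 0.29 and 0.42 in HFD, against -0.28, -0.41, -0.52 and -0.41 in control. The groups were separate and each was tight, with SDs of 0.07 in HFD and 0.10 in control. Agpat2 rose by 0.77 ± 0.08 (1.71-fold, limma adjusted p = 0.000800), and this was the only call among the members that held when each of the 9 arrays was left out (adjusted p 0.00190 to 0.00502).

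Agpat3 encodes another acyltransferase of this family, and its 4 probe sets all had positive differences that did not pass. The probe set 1433819_s_at was closest, with 0.13, -0.04, 0.67, 0.04 and 0.86 in HFD, against -0.56, -0.72, -0.26 and -0.31 in control, and a difference of 0.80 ± 0.19 (limma adjusted p = 0.0513). The other 3 differed by 0.29 to 0.56, with adjusted p of 0.0814 to 0.270. HFD replicates 3 and 5 were highest in 3 of these probe sets, in which the groups did not overlap. With the 4 probe sets averaged the difference was 0.51 ± 0.10 and passed in limma over all genes (adjusted p = 0.0175). The probe set 1433819_s_at lay close to the threshold, and it passed without HFD replicate 2 (adjusted p = 0.0430) or HFD replicate 4 (adjusted p = 0.0461). It also passed in 5 fits of all 9 arrays that changed the weights, the normalization or which probe sets were tested (limma adjusted p 0.0231 to 0.0458).

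Gpam, which takes the first acylation step, gave no clear difference. The probe set 1419499_at had -0.26, -0.11, 1.05, 0.64 and 0.62 in HFD, against 0.31, -0.20, -0.57 and 0.11 in control. Here HFD replicates 3, 4 and 5 lay above all controls, and HFD replicates 1 and 2 lay among them. The probe set 1425834_a_at placed the arrays in another order, with HFD replicate 4 highest at 1.25 and HFD replicate 5 lowest at -0.64. Their differences were 0.48 ± 0.27 (limma adjusted p = 0.424) and -0.01 ± 0.34 (limma adjusted p = 0.989). The 95% intervals, -0.12 to 1.08 and -0.76 to 0.73, leave room for changes in both directions. Without HFD replicate 5 the difference of 1425834_a_at was 0.19, and without HFD replicate 3 that of 1419499_at was 0.31.

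**Figure D2:**
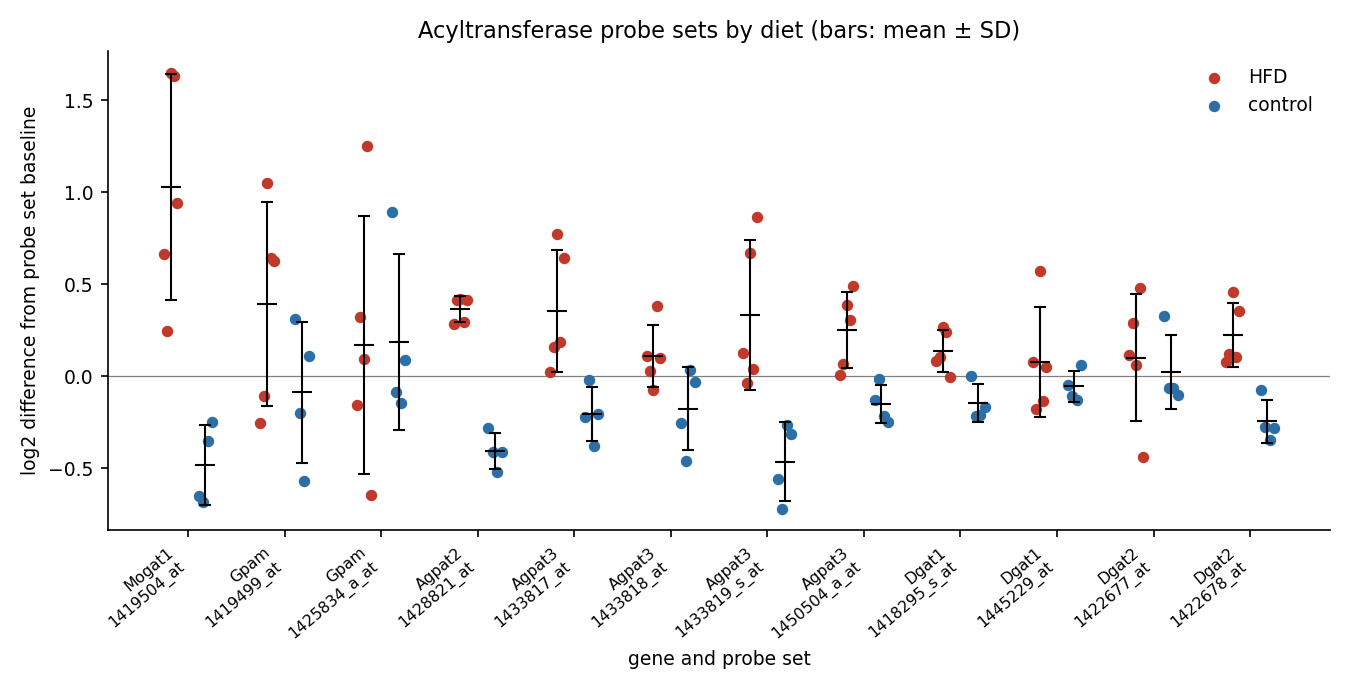
Log2 values relative to the baseline of each probe set (y axis) for the 12 acyltransferase probe sets (x axis), with HFD arrays in red to the left of control arrays in blue and bars for the mean ± SD. The groups are apart in Mogat1, Agpat2, 3 of the 4 probe sets of Agpat3 and 1 of the 2 of Dgat2, and they overlap in the others.

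Of the lipins, which turn phosphatidate into diacylglycerol, Lpin3 was the one that passed, and the lipins were not tested against each other. Lpin3 (chromosome 2, 160880670 to 160906000) had 0.00, -0.15, -0.20, 0.00 and -0.26 in HFD, against 0.30, 0.18, 0.18 and 0.44 in control. All HFD arrays were below all controls. Lpin3 fell by 0.40 ± 0.09 on the log2 scale (1.32-fold, limma adjusted p = 0.0388). The call held without HFD replicate 1 or 4, and it was lost without HFD replicate 2, 3 or 5 or any 1 control array (adjusted p 0.0660 to 0.104).

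Lpin1 (chromosome 12, 16535669 to 16653903) had the widest spread of the members. The probe set 1418288_at gave -3.18, -2.76, -1.11, -0.53 and 0.53 in HFD, against -0.87, 0.66, 1.38 and 1.12 in control, and 1426516_a_at gave -3.30, -2.66, -0.85, -0.18 and 0.94 in HFD, against -0.64, 0.61, 1.41 and 1.11 in control. Both probe sets placed HFD replicates 1 and 2 far below all other arrays, HFD replicates 4 and 5 among the controls, and control replicate 1 below the other controls. The differences were -1.98 ± 0.73 and -1.84 ± 0.79, with adjusted p of 0.196 and 0.273 in limma, so that means 3.95-fold and 3.57-fold lower in HFD did not pass the adjustment over all probe sets (unadjusted p in the same limma fit 0.0203 and 0.0403). Without HFD replicate 5 the differences were -2.47 and -2.37 and did not pass either (limma adjusted p = 0.0696 and 0.0966). The intervals with all arrays were -3.59 to -0.37 and -3.57 to -0.10. Of all 41782 probe sets, 11 had a larger SD among the HFD arrays than the larger of the 2 Lpin1 values, 1.75.

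Lpin2 was tight among controls and not among HFD arrays in 3 of its 4 probe sets. The probe set 1452836_at had -1.95, -1.14, 0.03, -0.03 and 0.19 in HFD, against -0.04, 0.03, 0.12 and 0.16 in control. HFD replicates 1 and 2 were again the lowest, and the SD was 0.93 in HFD and 0.09 in control. In 1452837_at and 1460290_at HFD replicate 1 stood at -1.97 and -2.07 and HFD replicate 2 at -0.57 and -0.68, below all controls. These 3 probe sets differed by -0.65 ± 0.39, -0.17 ± 0.46 and -0.46 ± 0.42, none past the threshold in limma (adjusted p 0.455 to 0.902). Without HFD replicate 1 they were -0.30, 0.27 and -0.049, none past the threshold. The remaining probe set, 1446316_at, went the other way, with -1.33, 1.90, 2.51, 1.18 and 1.02 in HFD, against 0.57, -0.84, -0.57 and -1.24 in control. Its difference of 1.58 ± 0.66 did not pass (limma adjusted p = 0.260), and without HFD replicate 1 it was 2.17 and passed (adjusted p = 0.0244). What part of Lpin2 each probe set reads was not analysed here.

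**Figure D3:**
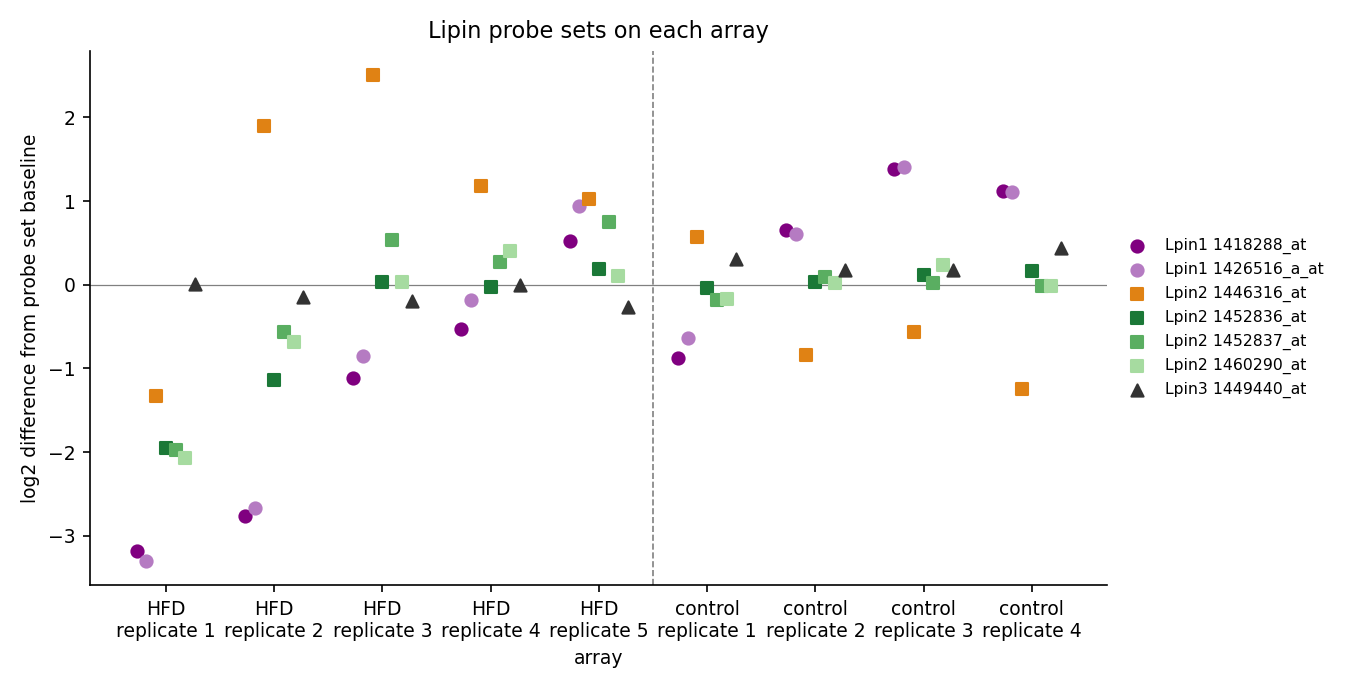
Log2 values relative to the baseline of each probe set (y axis) for the 7 lipin probe sets on each array (x axis), HFD arrays to the left of the dashed line and control arrays to the right. Lpin1 (purple circles) reaches -3.30 on HFD replicate 1 and 1.41 on control replicate 3, 3 probe sets of Lpin2 (green squares) are low on HFD replicates 1 and 2, the fourth (orange squares) is high on HFD replicates 2 to 5, and Lpin3 (triangles) stays between -0.26 and 0.44.

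The last step was covered by Dgat1 and Dgat2. Dgat2, which encodes the enzyme linked to newly made fatty acids in liver, was read by 2 probe sets from the same accession that disagreed. The probe set 1422678_at had 0.08, 0.12, 0.46, 0.11 and 0.36 in HFD, against -0.08, -0.27, -0.35 and -0.28 in control, with no overlap. It rose by 0.47 ± 0.10 (1.38-fold, limma adjusted p = 0.0331). The probe set 1422677_at had 0.11, 0.29, 0.06, 0.48 and -0.44 in HFD, against 0.33, -0.06, -0.06 and -0.10 in control. There the groups overlapped, HFD replicate 5 was lowest, and the difference was 0.08 ± 0.17 (limma adjusted p = 0.875), or 0.21 without HFD replicate 5. With both averaged, 0.27 ± 0.09 missed the threshold (limma adjusted p = 0.132). The call of 1422678_at was also lost without HFD replicate 3, HFD replicate 5 or control replicate 2, 3 or 4 (adjusted p 0.0587 to 0.106).

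Dgat1, whose product also handles fatty acids taken up from outside, did not pass in either probe set. The probe set 1418295_s_at had 0.08, 0.10, 0.27, 0.24 and 0.00 in HFD, against 0.00, -0.21, -0.21 and -0.17 in control. HFD replicates 1 to 4 lay above all controls, and HFD replicate 5 lay just below control replicate 1. The difference was 0.29 ± 0.08 (limma adjusted p = 0.105), and that of 1445229_at was 0.13 ± 0.14 (limma adjusted p = 0.704). Without HFD replicate 3, the highest array of 1445229_at, that difference was 0.0088.

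The routes were set against each other on each array, with the probe sets of a gene averaged. The mean of Gpam, Agpat2 and Agpat3 was 0.30 ± 0.19 in HFD (SD, n = 5) and -0.20 ± 0.16 in control (SD, n = 4), a difference of 0.51 beside 1.51 for Mogat1. With the 3 lipins included, the mean of the glycerol phosphate route was -0.09 ± 0.50 in HFD and 0.02 ± 0.09 in control, a difference of -0.12. The HFD arrays then ranged from -0.82 on replicate 1 to 0.32 on replicate 5. With probe sets averaged, Lpin1 differed by -1.91, Lpin2 by 0.08 and Lpin3 by -0.40. The negative difference of the route thus came chiefly from Lpin1, which did not pass. The mean of Dgat1 and Dgat2 was 0.13 ± 0.13 in HFD and -0.11 ± 0.11 in control. These means are descriptions and were not tested.

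**Figure D4:**
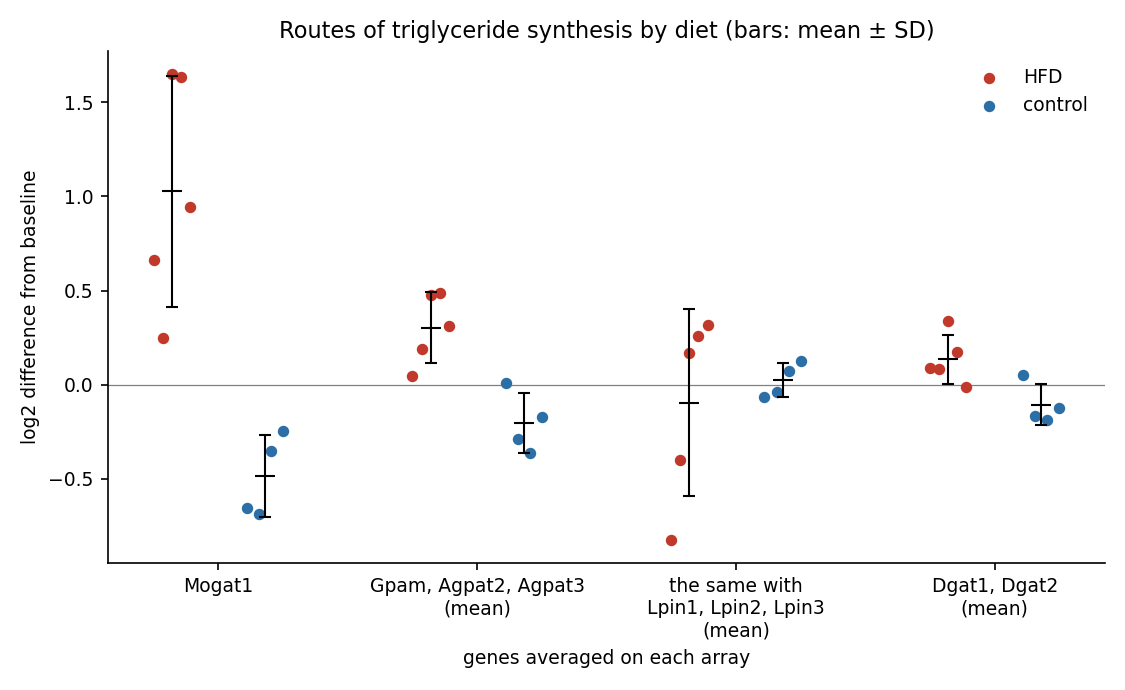
Mean log2 value on each array (y axis) of Mogat1, of the acyltransferases Gpam, Agpat2 and Agpat3, of these with the 3 lipins, and of Dgat1 and Dgat2 (x axis), HFD in red to the left of control in blue, with bars for the mean ± SD. Mogat1 shows the widest gap between the diets. Adding the lipins, chiefly Lpin1, brings the glycerol phosphate group to a difference of -0.12.

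The value of Mogat1 minus that of each other member was then compared between the diets, 8 comparisons in all. A positive number means that Mogat1 differed between HFD and control by more than the other gene, counted towards higher in HFD. The comparison with Gpam gave 0.75 ± 0.37 in HFD (SD, n = 5) and -0.53 ± 0.53 in control (SD, n = 4), a difference of 1.28. Against Agpat3 the difference was 1.00, against Lpin2 1.44, against Lpin3 1.91 and against Lpin1 3.42. Against the last step it was 1.30 for Dgat1 and 1.24 for Dgat2. In these 7 comparisons the groups did not overlap, and the two-sided exact permutation p was 0.0159 in each, unadjusted, which is the smallest these group sizes allow. All 8 comparisons share the Mogat1 values, in which the groups already did not overlap. The 7 are therefore not separate results, and against a gene that differed little they largely repeat the rise of Mogat1. Lpin3 was lower on every HFD array than on every control array. Mogat1 minus Lpin3 therefore had to separate the groups, and its p adds nothing to the results of the 2 genes.

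Mogat1 and Agpat2 were not separated in this way. Mogat1 minus Agpat2 was 0.38, -0.17, 1.23, 1.34 and 0.53 in HFD, against -0.37, -0.27, 0.17 and 0.16 in control. HFD replicate 2 lay among the controls. The difference was 0.74 (exact permutation p = 0.0635, two-sided), which does not show that both genes changed by the same amount, and without HFD replicate 2 it was 0.95 (exact permutation p = 0.0286). The comparison with Lpin2 depended on its probe sets, because against 1446316_at alone it was -0.07 (exact permutation p = 0.905).

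Other genes of the pathway were read from lists by function, as genes with at least 1 probe set past the threshold. Over all genes 3.66% had such a probe set that was higher and 1.98% one that was lower. Of 7 other glycerol phosphate and lysophosphatidate acyltransferases none passed, and the median difference of their probe sets was -0.05, beside -0.01 for all probe sets. Gpat3, an endoplasmic reticulum enzyme of the first step, was nearest with 0.02, -0.10, 1.43, 1.03 and 0.88 in HFD, against -0.63, -0.59, -0.84 and -0.02 in control, and differed by 1.17 ± 0.30 (limma adjusted p = 0.0671). As in Mogat1 and in 1 probe set of Gpam, HFD replicates 3, 4 and 5 were the highest arrays in Gpat3.

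Of 5 measured genes that supply glycerol phosphate, 1 rose, Gpd1, the glycerol phosphate dehydrogenase (median of the list 0.04). Its probe set 1448249_at rose by 0.83 ± 0.15 (limma adjusted p = 0.0161), 1439396_x_at rose by 0.52 ± 0.11 (limma adjusted p = 0.0330), and the third had 0.61 ± 0.22 (adjusted p = 0.179). The call of 1448249_at was lost without control replicate 2 (adjusted p = 0.0645), and that of 1439396_x_at without any of 6 arrays (HFD replicates 2, 3 and 5 and control replicates 1, 2 and 3, adjusted p 0.0518 to 0.107). Of 5 measured genes that supply or use monoacylglycerol, 1 rose, Mgll, the lipase that breaks monoacylglycerol down (median of the list 0.11). In Mgll 3 of 4 probe sets rose, by 1.04 to 1.41, and kept their calls when each array was left out. Mogat2, the intestinal relative of Mogat1, differed by -0.10 ± 0.11 (limma adjusted p = 0.731).

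Of 10 other genes whose products act on phosphatidate or diacylglycerol, 1 rose and 1 fell (median of the list 0.02). Chpt1, which joins choline to diacylglycerol to make phosphatidylcholine, rose in 3 of 4 probe sets, led by 1455901_at at 1.01 ± 0.09 (limma adjusted p = 0.000515). Plpp1, a phospholipid phosphatase of the cell surface, fell in 2 of 3 probe sets, by 1.11 ± 0.20 and 1.40 ± 0.31 on the log2 scale (limma adjusted p = 0.0158 and 0.0347). The smaller fall was lost without control replicate 2 or 3 (adjusted p 0.0503 to 0.0634). The larger was lost without HFD replicate 2, 3 or 5 or any control array (adjusted p 0.0580 to 0.116). In Chpt1 the weakest of the 3 calls, 1435446_a_at (0.65 ± 0.15, adjusted p = 0.0454), was lost without any array but HFD replicate 5 (adjusted p 0.0767 to 0.139).

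Of 8 regulators known to act on members of the pathway, 4 rose and none fell (median of the list 0.15). Srebf1, which encodes the SREBP-1 factors that switch on lipid synthesis genes, rose by 1.54 ± 0.26 (limma adjusted p = 0.0106) and kept its call with each array left out. Ppara, a nuclear receptor of fatty acid use, rose in all 3 of its probe sets, by 0.86 to 1.34. Pparg, the nuclear receptor of fat storage under which Mogat1 is known to be induced in mouse liver, had 0.11, 0.25, 0.54, 0.74 and 0.34 in HFD, against -0.11, -0.66, -0.70 and -0.22 in control, and rose by 0.82 ± 0.16 (limma adjusted p = 0.0208). In Pparg as in Mogat1 HFD replicates 3 and 4 were the highest arrays. The lowest HFD array was replicate 1 in Pparg and replicate 2 in Mogat1. Whether Pparg has a part in the Mogat1 result was not tested. The call of Pparg was lost without HFD replicate 3 or control replicate 2 or 3 (adjusted p 0.0600 to 0.0763). The strongest Ppara call, of 1449051_at, was lost without HFD replicate 3 or control replicate 2 or 4 (adjusted p 0.0614 to 0.0740). The other calls of Ppara were lost without 7 arrays each (adjusted p 0.0526 to 0.125). Cnep1r1, a regulatory subunit of the phosphatase that acts on lipins, rose by 0.36 ± 0.09 in 1 of 2 probe sets (limma adjusted p = 0.0474), a call lost without any array but HFD replicate 4 (adjusted p 0.0639 to 0.126).

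Ppargc1a, the coactivator partner of lipin 1, spread widely within both diets and did not pass in any of 5 probe sets (differences of -0.53 to -0.09). The probe set 1456395_at had -1.71, -1.62, -1.10, 1.08 and 1.44 in HFD, against -1.65, -0.25, 0.25 and 1.82 in control. HFD replicates 1, 2 and 3 and control replicate 1 were at the low end in Ppargc1a, and they were also the lowest arrays of their diets in Lpin1. Whether this spread has a part in the Lpin1 result was not tested.

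Among markers of other cell types, none of 5 measured adipocyte markers passed. Adiponectin (Adipoq) differed by 0.03 ± 0.13 and leptin (Lep) by 0.08 ± 0.10. The mean of the adipocyte list was 0.04 to 0.48 on HFD arrays and -0.37 to 0.20 on control arrays. The widest values of the list were in Car3, a carbonic anhydrase that liver also expresses, whose probe set 1430584_s_at had 3.01, 3.61, 2.17, 0.32 and -0.32 in HFD, against 2.52, -2.85, -3.24 and -2.43 in control, and did not pass (limma adjusted p = 0.191). Of 6 Kupffer cell markers 3 fell, Vsig4, Clec4f and Timd4, with a list mean of -1.18 to 0.03 on HFD arrays and 0.10 to 1.25 on control arrays. Vsig4 lost its call without HFD replicate 3 or control replicate 1, 2 or 3 (adjusted p 0.0617 to 0.0864), and Clec4f without 7 of the arrays (adjusted p 0.0525 to 0.144). Of 5 measured enterocyte markers 2 rose, Fabp2 and Apob, which liver also expresses. The list mean was 0.14 to 0.33 on HFD arrays and -0.31 to -0.19 on control arrays. The probe sets of Apob disagreed, with 1.27 ± 0.18 in 1457554_at (limma adjusted p = 0.00502) and 0.15 ± 0.09 in 1455593_at (limma adjusted p = 0.473). The part of these cell types in the results for the 9 genes was not tested.

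The genes whose values ran closest to a member over the 9 arrays were named by Pearson r, as a description in which a shared difference between the diets raises r. Closest to Mogat1 were Sgms1 (r = 0.99), a sphingomyelin synthase, Lhx6 (r = 0.99), Cyp2b9 (r = 0.98), a cytochrome P450, Cers6 (r = 0.97), a ceramide synthase, and Osbpl3 (r = 0.97), an oxysterol-binding protein relative. Closest to Agpat2 were Abhd15 (r = 0.99), Hdac11 (r = 0.99), a histone deacetylase, Tmie (r = 0.99), Mpdu1 (r = 0.99) and Trim2 (r = 0.98). For Lpin1, added after its values were seen, these were Slc38a2 (r = 0.99), an amino acid transporter, Aldoa (r = 0.99), Efhd2 (r = 0.98), Mt2 (r = 0.98), a metallothionein, and Skil (r = 0.97). None of the 5 genes closest to Lpin1 passed the threshold (adjusted p 0.239 to 0.406). For Lpin2 (1452836_at), also added afterwards, the list was led by Gadd45g (r = 0.97) and Igfbp1 (r = 0.96), a binding protein of insulin-like growth factors. Neither passed (adjusted p 0.350 for Gadd45g and 0.262 for Igfbp1).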

How the data were processed

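Mouse liver RNA was measured on Affymetrix GeneChip arrays after amplification and biotin labelling, per the labels' protocols. The authors used RMA with quantile normalization and moved the values to a baseline, the median of all samples, as the design text of the series states. The deposited values were read as log2, which RMA returns, since no source states the base. In 92.8% of probe sets the middle values mirror each other around 0 (within 1e-05), as a median over 10 arrays would leave them, and 9 arrays are used here. Differences between groups do not depend on the baseline. Arrays were grouped by the diet label, and replicate numbers follow deposition order and pair nothing.

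Of 41842 rows, 60 control probe sets were left out. The platform annotation pairs 32801 of the others with 1 symbol, 862 with several and 8119 with none. The diets were compared (HFD minus control) with R 4.3.3 and limma 3.58.1 (lmFit, eBayes, no covariate, two-sided, Benjamini-Hochberg over 41782 probe sets, threshold 0.05), with every probe set on its own, because picking the most variable one favours larger differences. The fit was also run on simulated data with the same spread in both diets and differences larger than those of Agpat2, Dgat2 and Lpin3. That run therefore does not cover differences as small as these, or probe sets whose spread differed between the diets. Exact permutation tests used scipy 1.17.1. The number of arrays limits the precision.

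All members are named, with genes of the listed pathways that passed (up to 4 a list) and the 5 nearest patterns. Gpat3, Mogat2, Ppargc1a, and the markers Adipoq, Lep and Car3 were named after their values were seen. The members and lists were chosen with earlier results of these data known. Alternatives were median subtraction, a further quantile normalization, averaged or most variable probe sets, a filter on small SD, robust eBayes, array weights, only probe sets with 1 symbol, an adjusted p under 0.01 and leaving out each array.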

Additional observations from a re-analysis of the deposited data

Results flagged for a closer look

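Of 38 groups of values examined for a single array far from the others (19 probe sets in 2 diets), 1 stood out, where chance gives about 1 in 20. In the Dgat2 probe set 1422677_at, control replicate 1 was at 0.33 and the next control at -0.06. This is the Dgat2 probe set in which the diets overlapped.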

How the results depend on the processing

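No paired analysis was possible because the labels carry no replicate numbers and the numbers used here only follow the order of deposition. Of 294 values of member probe sets under the alternatives, averaging aside, 264 kept their direction and side of the threshold, 14 lost a call, 8 gained one (1433819_s_at of Agpat3 and 1446316_at of Lpin2) and 8 changed sign, all of the last in differences that had not passed. The difference of Gpam 1425834_a_at was 0.063 with array weights, 0.045 after a further quantile normalization, 0.23 with probe sets averaged, and -0.28 to 0.22 with 1 array left out. Averaging gave 0.075 for Lpin2, against negative differences in 3 probe sets. With 1 array left out, 1452837_at of Lpin2 ran from -0.41 to 0.27 and 1422677_at of Dgat2 from -0.018 to 0.21. Mogat1 minus Lpin2 was -0.067 with the most variable probe set. Mogat1 minus Agpat2 ran from 0.57 to 0.95 with 1 array left out. The member count of 4 (3 higher, 1 lower) ran from 1 to 5 with 1 array left out (1 to 4 higher, 0 to 1 lower). It was 1 at an adjusted p under 0.01 (Agpat2, higher, and 0 lower, with 1 of the 19 called by limma). It had 0 lower without the probe sets of smallest SD (Lpin3, adjusted p = 0.0510). The count of all probe sets, 1363 (851 higher, 512 lower), ran from 546 to 1481 with 1 array left out (359 to 870 higher, 187 to 611 lower). It was 369 at the stricter threshold (230 higher, 139 lower). By gene, where fewer features are tested, it was 905 with probe sets averaged (552 higher) and 327 lower with the most variable probe set. Leaving out an array leaves fewer samples, and for other differences the cause was not tested.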
